A study of Homo sapiens with 8 samples.

Results

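Sequencing of RNA from MDA-MB-231 cells gave levels for 42 genes of glucose breakdown and of the response to low oxygen, found by gene symbol among the 16383 genes of the deposited count table. They were 2 glucose transporters, 15 glycolytic enzymes, 4 genes of lactate formation and export, 3 regulators of glycolytic flux, 7 subunits and regulators of the hypoxia-inducible factors (HIF), and 11 HIF target genes outside glycolysis. MDA-MB-231 is a human triple-negative breast cancer line of mesenchymal character. The cells grew in DMEM with serum and antibiotics at the usual incubator settings, and received 5 µM c-di-GMP or the vehicle, 1×PBS, for 24 h. There were 4 vehicle libraries and 4 c-di-GMP libraries, all of the same line and with no genetic change named. c-di-GMP is a bacterial cyclic dinucleotide that the innate immune adaptor STING binds, and the series title names metastasis, STING and the proteasome subunit PSMD3. Oxygen supply was not a variable of the study. Separate cultures behind the 4 libraries of a group are not stated, and the p-values below thus speak of library-to-library spread, which may be technical.

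Glycolysis turns glucose into pyruvate in the cytosol, and lactate dehydrogenase reduces pyruvate to lactate, which monocarboxylate transporters carry out of the cell. Many tumour lines run this route at a high rate even with oxygen present. HIF is a dimer of an oxygen-labile alpha subunit and a stable partner of the ARNT family: with oxygen present, prolyl hydroxylases (the EGLN enzymes) mark the alpha subunit for the ubiquitin ligase of VHL, and without it the dimer binds DNA and raises transcription of glycolytic and other genes. Since that control acts on the HIF protein, the RNA of HIF1A does not report its activity.

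Depth ran from 16151360 to 18040010 counts a library. A gene with 3 counts would stand at 0.166 to 0.186 CPM (library-scaled counts), a floor for counting error only. Vehicle replicate 3 stood apart before any comparison: across genes (not independent replicates), the correlation of its log2 CPM with each other library was 0.866 to 0.882, while every other pair stood at 0.991 or higher, and 465 listed genes were at 0 in it, against 2 to 9. Short genes, with a longest transcript of up to 2000 bases, made up 34.6% of its counts. They made up 16.18%, 17.49% and 16.69% in vehicle replicates 1, 2 and 4 and 17.89% to 18.4% with c-di-GMP. These ranges did not overlap, so that the groups also differed in the share of short genes. The defining markers of the line VIM, CD44, AXL, FN1 and EGFR summed to 488 to 503 FPKM (fragments scaled by gene length and library size, the authors' values) in the other 7 libraries and to 616 FPKM in vehicle replicate 3, where VIM was higher (411 FPKM, against 116 to 148) and AXL (77.7, against 206 to 241), EGFR (10.7, against 30.5 to 33.5) and FN1 (15.8, against 29.01 to 32.92) were lower. FPKM over all genes summed to 539972 in vehicle replicate 3, a larger rise than that of these markers. The sums were 240892 to 248609 in vehicle replicates 1, 2 and 4 and 255846 to 258344 with c-di-GMP, again without overlap. SPARC, also listed as a marker of the line, had no FPKM value and only 0.172 to 1.02 CPM outside vehicle replicate 3. Of the markers expected to be low in the line, ESR1 and PGR had no FPKM value. ERBB2 had 9.21 to 10.46 FPKM in vehicle replicates 1, 2 and 4, 7.95 to 8.34 with c-di-GMP and 6.65 in vehicle replicate 3. Luminal epithelial markers (6 of 7 with a value) summed to 327 to 356 FPKM in vehicle replicates 1, 2 and 4, to 318 to 328 FPKM with c-di-GMP and to 1030 FPKM in vehicle replicate 3. The keratins KRT8, KRT18 and KRT19 made up most of each sum. In vehicle replicates 1, 2 and 4, EPCAM had 4.36 to 5.31, GATA3 3.77 to 3.96 and CDH1 0.299 to 0.343 FPKM. In vehicle replicate 3 EPCAM (22.5) and GATA3 (6.93) were higher and CDH1 (0.252) was lower. Of the immune, endothelial and fibroblast markers only CD14, PECAM1 and PDGFRB had a value, of 5.39 to 8.68, 1.03 to 1.24 and 0.831 to 1.15 FPKM outside vehicle replicate 3. The part of these differences in the results below was not tested. Comparisons are therefore given for all 8 libraries, for the 7 without vehicle replicate 3, and for those 7 after correction for the GC content of transcripts.

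Promoter sequence is shown for 4 of the 6 members that passed in both fits of 7 libraries, to set members with and without the core letters that HIF binds side by side. HK2 fell and LDHA rose with c-di-GMP in the 7 libraries, both with and without GC correction, and each holds those letters. SLC16A3 fell and LDHB rose in the same fits, without them. The remaining 2, SLC2A1 and PFKP, also hold none, so that 2 of the 6 have a match. This holds for the first listed window of each gene only. There were 5 windows listed for SLC16A3, 4 for PFKP, 2 for HK2 and 2 for LDHA. The further windows were not compared gene by gene, so that the contrast depends on the start site taken. The stretches are the 250 bases before the annotated start in RefSeq (GRCh38.p14), 5′ to 3′ on the strand of the gene: HK2 at chr2:74833877-74834126 (plus strand), LDHA at chr11:18394313-18394562 (plus), SLC16A3 at chr17:82228185-82228434 (plus) and LDHB at chr12:21657843-21658092 (minus). Capitals mark ACGTG or GCGTG on either strand, so that CACGT is ACGTG read on the other strand and CACGTG, the E-box that MYC and related factors also bind, counts on both.
HK2: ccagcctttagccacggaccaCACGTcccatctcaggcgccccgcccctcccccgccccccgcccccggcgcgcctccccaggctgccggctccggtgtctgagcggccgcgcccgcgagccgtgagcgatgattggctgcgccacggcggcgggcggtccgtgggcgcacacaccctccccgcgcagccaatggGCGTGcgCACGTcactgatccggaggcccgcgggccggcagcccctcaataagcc
LDHA: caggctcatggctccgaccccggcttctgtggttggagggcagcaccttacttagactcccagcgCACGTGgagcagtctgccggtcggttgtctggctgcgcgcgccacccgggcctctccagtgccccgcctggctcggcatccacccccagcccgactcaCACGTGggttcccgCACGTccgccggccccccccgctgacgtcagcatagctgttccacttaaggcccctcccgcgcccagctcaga
SLC16A3: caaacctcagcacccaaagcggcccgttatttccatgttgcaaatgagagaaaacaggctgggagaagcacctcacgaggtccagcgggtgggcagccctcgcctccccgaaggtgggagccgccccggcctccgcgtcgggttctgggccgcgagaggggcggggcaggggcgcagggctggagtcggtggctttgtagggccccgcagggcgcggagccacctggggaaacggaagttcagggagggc
LDHB: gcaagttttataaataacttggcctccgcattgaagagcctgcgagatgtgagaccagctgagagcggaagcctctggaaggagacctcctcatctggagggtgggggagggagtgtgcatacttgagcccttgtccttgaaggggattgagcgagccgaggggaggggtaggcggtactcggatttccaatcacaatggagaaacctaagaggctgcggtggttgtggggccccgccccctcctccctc
HK2 held ACGTG 2 times and GCGTG 1 time, and LDHA held ACGTG 5 times, of which 4 come from 2 E-boxes. RefSeq windows were at hand for 37 of the 42 genes, and with the first listed window of each, 24 (64.9%) held ACGTG or GCGTG, against 43.1% of all genes with a window. ACGTG alone was in 40.5% of the members' windows and in 18.7% of all. Those are 27305 genes, more than the 16383 listed here, and they were not matched to the members for GC content. Known HIF targets are among the members by choice, so that the higher share is not a finding of these data. By role, either letter string was found in 9 of 15 glycolytic enzymes, 4 of 5 HIF regulators, 8 of 10 other HIF targets, 2 of 3 flux regulators, 1 of 3 lactate genes and 0 of 1 glucose transporters. A match describes the letters only and says nothing on binding in these cells. No window was listed for SLC2A3, SLC16A1, ARNT2, VHL and BNIP3L.

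The glycolytic genes spanned more than 2 orders of magnitude in level per length. FPKM values were deposited for 41 of the 42 genes, SLC16A1 being the exception. In vehicle replicates 1, 2 and 4 the highest were the enolase ENO1 with 611 ± 14.2 FPKM (SD, n = 3) and the glyceraldehyde phosphate dehydrogenase GAPDH with 593 ± 36.2 FPKM, whose ranges overlapped. They were followed by the pyruvate kinase PKM with 334 ± 12.6 FPKM and the lactate dehydrogenase subunit LDHA with 317 ± 12.0 FPKM, whose ranges also overlapped. PGAM1, TPI1 and PGK1, which act in the middle of the pathway, stood at 214, 205 and 177 FPKM. The glucose transporter SLC2A1, which brings glucose across the plasma membrane, had 133 ± 9.26 FPKM, and its relative SLC2A3 had 5.58 ± 0.0748 FPKM. Of the HIF group, HIF1A, the oxygen-labile subunit, was highest with 63.5 ± 3.40 FPKM, followed by the related EPAS1 (HIF-2 alpha) with 17.8 ± 1.07, VHL with 17.0 ± 0.796 and the prolyl hydroxylase EGLN1 with 15.2 ± 0.249 FPKM. Among the other HIF targets, BNIP3, a mitophagy receptor, led with 54.7 ± 1.61 FPKM. ANGPTL4 and ANKRD37 stood at 1.91 and 1.83 FPKM, and EGLN2 was lowest of all at 1.36 FPKM. Of the 40 neighbouring pairs in this order, 23 did not overlap over the 3 vehicle libraries and 17 did. The order also depends on the gene length used, which covers all annotated exons (8571 bases for PKM, with a longest transcript of 3016).

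**Figure D1:**
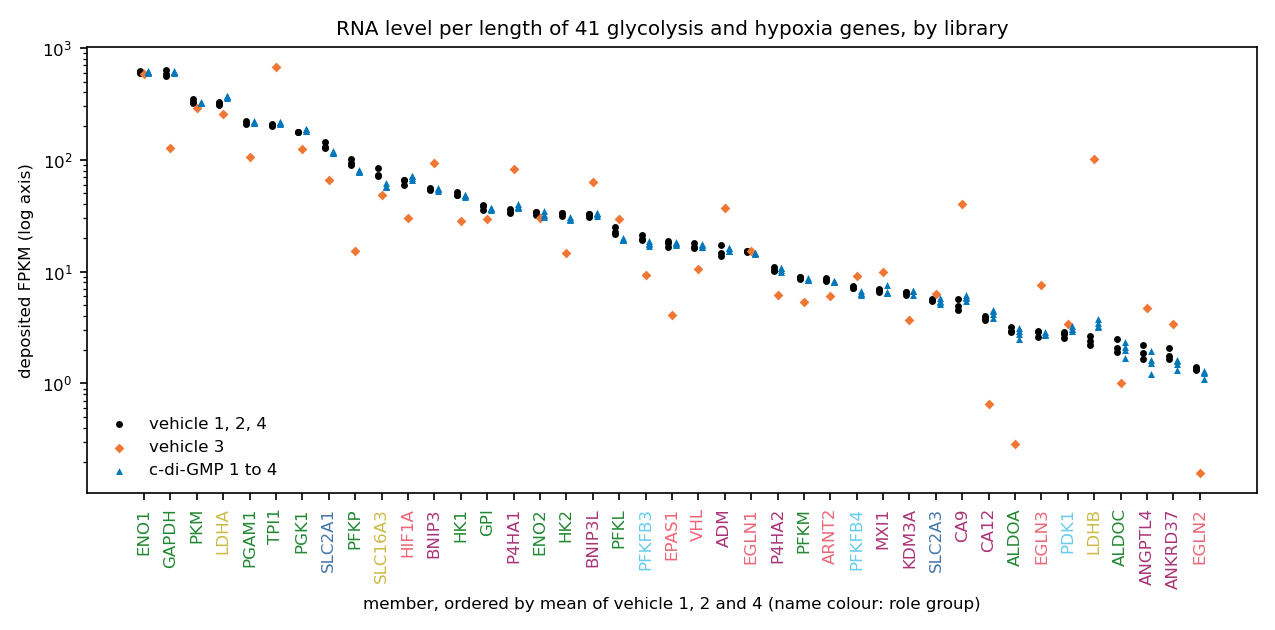
Deposited FPKM of 41 members in each library (log axis), ordered by the mean of vehicle replicates 1, 2 and 4; circles are those 3 libraries, triangles the 4 c-di-GMP libraries and diamonds vehicle replicate 3. The circles and triangles lie close together, from 611 FPKM for ENO1 to 1.36 FPKM for EGLN2, while the diamonds leave them in both directions.

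Where several genes encode one enzyme, their shares of the RNA were compared. By FPKM, PFKP, the platelet-type phosphofructokinase, made up 74.8% ± 0.228 (SD, n = 3) of the 3 phosphofructokinase genes in vehicle replicates 1, 2 and 4, PFKL 18.2% and PFKM 6.94%. HK1 took 60.3% ± 1.01 and HK2 39.7% of the 2 hexokinases, which trap glucose in the cell by phosphorylation. ENO1 took 94.8% of the enolases, and LDHA 99.2% ± 0.071 of the 2 lactate dehydrogenase subunits. Among the prolyl hydroxylases EGLN1 took 78.4%, EGLN3 14.6% and EGLN2 7.03%. HIF1A took 78.0% of the 2 HIF alpha genes. With c-di-GMP PFKP stood at 73.8% ± 0.454 (SD, n = 4), HK2 at 38.4% ± 0.727, LDHB at 0.924% ± 0.077 against 0.759% ± 0.071, and EGLN1 at 78.5% ± 0.651. These shares depend on the gene length given with the FPKM, which covers all annotated exons of a gene. It was 7359 bases for EGLN3, with a longest transcript of 2849. For EGLN1 it was 7265, with a longest transcript of 7097. The shares also rest on counts that some of the genes share with neighbours. ALDOA has 53.5% of its exonic bases in common with other annotated genes (42.3% with AC093512.2 on the same strand), LDHB 33.4% with AC010197.2 and EGLN2 30.6% with RAB4B-EGLN2. ALDOA, a muscle-type aldolase, had only 3.00 FPKM here. Reads in the shared stretches could have been assigned elsewhere or left out, so that its level is uncertain. The levels and shares of LDHB and EGLN2 are uncertain in the same way. For LDHB, 997 shared bases stand beside a longest transcript of 1538 bases. On the opposite strand, CA9 shares 38.5% with ARHGEF39, ANKRD37 35.2% with UFSP2 and GAPDH 14.2% with AC006064.4. Whether counting used the strand is not given in the sources used here. Listed pseudogenes named after TPI1, GAPDH, PGAM1, LDHA and BNIP3 held counts equal to 0.081% (LDHA) to 1.07% (TPI1) of those of the gene itself.

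With all 8 libraries, none of the 42 genes passed the threshold (edgeR's quasi-likelihood test, Benjamini-Hochberg adjusted p under 0.05 over all genes tested), as for the table as a whole, where 0 of 15415 genes (0%) passed. At an unadjusted p under 0.05 there was 1 member, PFKL, and 902 genes in all. limma-voom also called 0 genes, with 837 below that unadjusted level, and DESeq2 called 122 genes, none of them a member, with 4 members below the unadjusted level. The median log2 fold change of the members was 0.001, beside -0.049 over all genes. The biological coefficient of variation was 36.4% with all 8 libraries and 4.52% without vehicle replicate 3.

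Without vehicle replicate 3, 11 of the 42 members passed (26.2%), a share close to the 29.9% of all 15647 genes tested that passed. LDHA, LDHB, PDK1 and P4HA1 rose, 4 members beside 13.6% of all genes. SLC2A1, HK2, PFKL, PFKP, SLC16A3, PFKFB3 and PFKFB4 fell, 7 members beside 16.4% of all genes. The CPM of the groups did not overlap for 4 members on the higher side and 13 on the lower side, against 17.3% and 18.3% of all genes. Among those that passed, the largest change was that of LDHB, by 38.8%. Over all 42 members the median log2 fold change was -0.03, beside 0.00 over all genes. All fitted changes in these 42 genes were thus under 1.5-fold.

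Fold changes varied with transcript GC content. Over all genes the median log2 fold change went from 0.13 where the longest transcript has under 40% GC to -0.30 at 60% GC or more, and over the members from 0.10 (3 genes) to -0.28 (4 genes). The members had a median of 52.4% GC and the 15 glycolytic enzymes one of 53.3%, against 48.3% over all listed genes. After correction for each library's GC trend, 12 members passed (28.6%), beside 15.8% of all genes. TPI1, GAPDH, LDHA, LDHB, CA9 and ADM rose, beside 8.88% of all genes, and SLC2A1, HK2, PFKP, SLC16A3, EGLN1 and BNIP3L fell, beside 6.92%. SLC2A1, HK2, PFKP and SLC16A3 fell and LDHA and LDHB rose in both fits, and 25 members passed in neither. The median log2 fold change was -0.02 after correction, beside 0.00 over all genes. Of the 6 that rose after GC correction, TPI1, GAPDH, LDHB, CA9 and ADM have a longest transcript of at most 2000 bases. With GC and length correction these rises were smaller and still passed. They were 0.12 for TPI1, 0.14 for GAPDH, 0.08 for LDHA, 0.34 for LDHB, 0.32 for CA9 and 0.15 for ADM. The 6 that fell also still passed, at -0.09 (HK2) to -0.15 (PFKP). The trend also differed among vehicle libraries. GC correction took PFKL from 240, 208.5 and 218 CPM to 193, 196 and 197 CPM in vehicle replicates 1, 2 and 4. With c-di-GMP it took PFKL from 181 to 189 CPM to a range of 196 to 209 CPM. Whether the GC trend comes from the libraries or from the treatment cannot be told apart here.

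**Figure D2:**
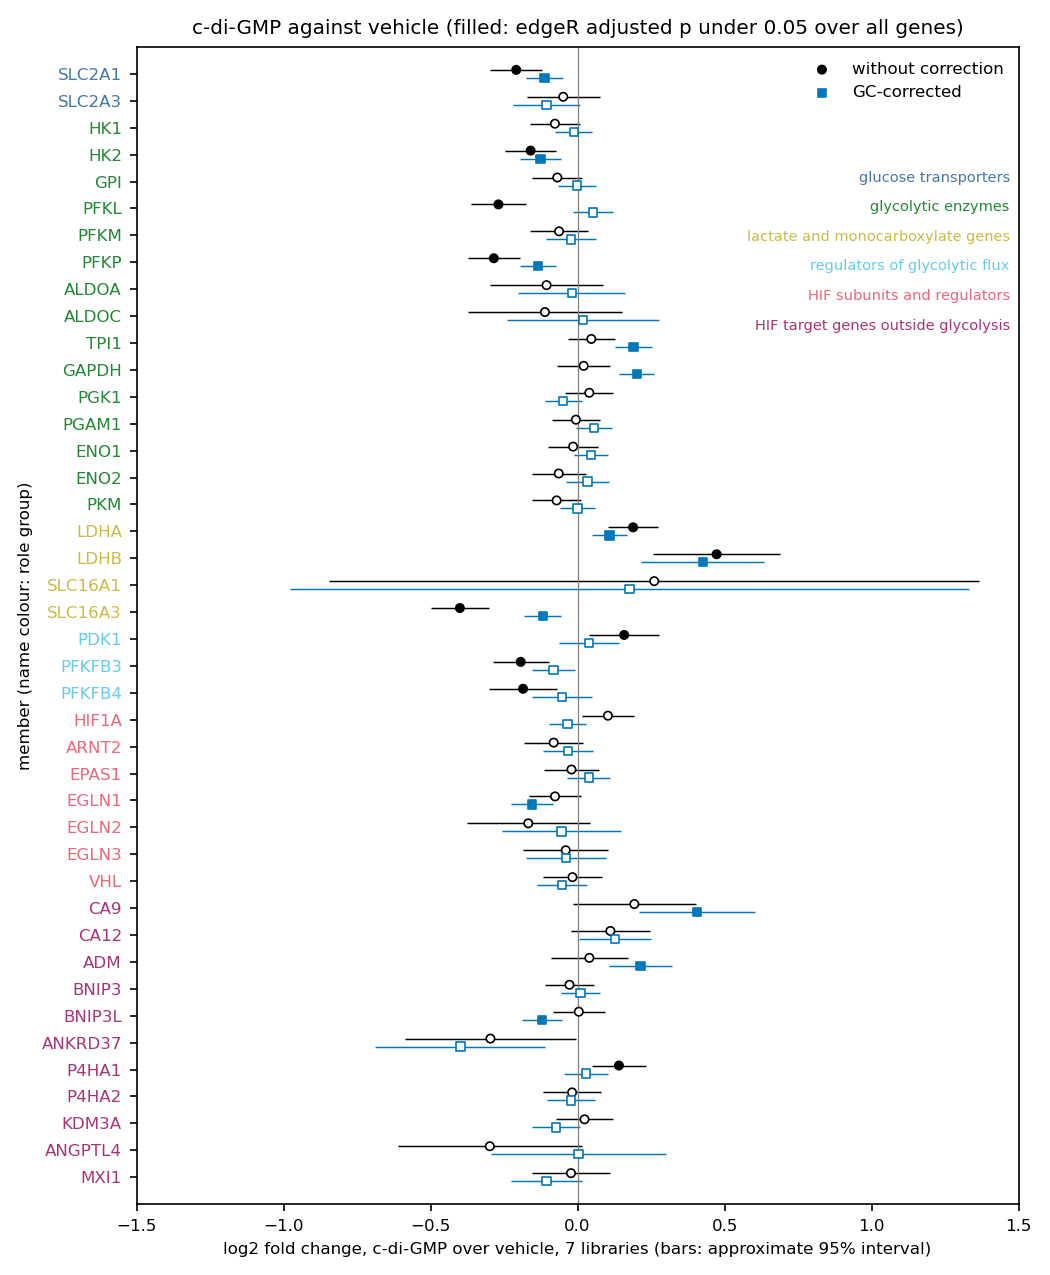
Log2 fold change of each of the 42 members, c-di-GMP over vehicle in 7 libraries, without (circles) and with GC correction (squares), with approximate 95% intervals; filled symbols passed the threshold over all genes, and the colour of a name gives its role. Filled symbols of both kinds sit together for SLC2A1, HK2, PFKP, LDHA, LDHB and SLC16A3, while PFKL moves from -0.27 to 0.05.

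Of the glucose transporters, SLC2A1 (GLUT1, the basal glucose carrier of most cells) fell. Its level was 730.4, 653 and 644 CPM in vehicle replicates 1, 2 and 4, and 589.8, 599, 570.0 and 581 CPM in c-di-GMP replicates 1 to 4. Every c-di-GMP library was thus below every one of these vehicle libraries, with vehicle replicate 1 farthest from the rest. Vehicle replicate 3 had 345 CPM, lower than all. The log2 fold change was -0.21 ± 0.04 (SE, edgeR adjusted p = 0.000454) and -0.11 ± 0.03 after GC correction (edgeR adjusted p = 0.00967). The corrected call was lost without vehicle replicate 1. SLC2A3 (GLUT3, a high-affinity carrier) had 36.2 to 37.4 CPM with vehicle and 33.8 to 38.3 CPM with c-di-GMP, groups that overlapped.

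Among the 15 glycolytic enzymes, 3 fell without correction (HK2, PFKL and PFKP) and none rose. HK2, the inducible hexokinase, had 216, 203 and 219 CPM in vehicle replicates 1, 2 and 4 and 189.6, 196, 185 and 191 CPM with c-di-GMP. The groups did not overlap, and vehicle replicate 2 was the nearest to the treated libraries. The log2 fold change was -0.16 ± 0.04 (SE, edgeR adjusted p = 0.00441), or -0.13 ± 0.03 with GC correction (edgeR adjusted p = 0.00711), a corrected call that was lost without vehicle replicate 4. PFKP had 530.4, 466 and 485 CPM with vehicle and 407, 414, 401 and 399.7 CPM with c-di-GMP. The treated libraries lay close together and below all 3 vehicle libraries. In log2 units PFKP fell by 0.28 ± 0.04 (edgeR adjusted p = 7.23e-06), and by 0.14 ± 0.03 after correction (edgeR adjusted p = 0.00152). This call held in every fit of the 7 libraries, corrected or not, and with each library left out. PFKL, the liver-type phosphofructokinase and the member with the highest GC content (64.1%), fell by 0.27 ± 0.05 without correction (edgeR adjusted p = 3.48e-05). With GC correction its log2 fold change was 0.05 ± 0.03 (edgeR adjusted p = 0.331), and with GC and length correction 0.09 (edgeR adjusted p = 0.0325).

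GAPDH and TPI1, neighbours in the pathway at the level of triose phosphates, rose with GC correction and did not pass without it. GAPDH had 2032, 1803 and 1861 CPM in vehicle replicates 1, 2 and 4 and 1916, 1922, 1981 and 1885 CPM with c-di-GMP, and the groups overlapped. The change in log2 was 0.02 ± 0.04 without correction (edgeR adjusted p = 0.762) and 0.20 ± 0.03 with it (edgeR adjusted p = 3.19e-06). On the GC-corrected scale its vehicle libraries lay at 1767 ± 14.98 CPM (SD, n = 3) and the c-di-GMP libraries at 2031 ± 29.1 CPM (SD, n = 4). TPI1 likewise went from 0.05 ± 0.04 (edgeR adjusted p = 0.403) to 0.19 ± 0.03 (edgeR adjusted p = 2.66e-05). Both have transcripts rich in GC, at 58.8% and 57.3%. PKM, which makes pyruvate and ATP in the last step, had 3214, 3023 and 2999 CPM with vehicle and 2909.5, 2963, 2913.5 and 2933 CPM with c-di-GMP. The treated libraries lay just below the vehicle libraries, yet the log2 fold change of -0.07 ± 0.04 did not pass (edgeR adjusted p = 0.204), and with correction it was 0.00 ± 0.03 in size. The other enzymes, HK1, GPI, PFKM, ALDOA, ALDOC, PGK1, PGAM1, ENO1 and ENO2, passed in neither fit, with log2 fold changes from -0.11 (ALDOC) to 0.04 (PGK1) without correction.

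Of the 4 lactate genes, LDHA and LDHB rose and SLC16A3 fell in both fits. LDHA, the subunit that favours lactate formation, had 2043, 2191 and 2108 CPM in vehicle replicates 1, 2 and 4 and 2356, 2389, 2461 and 2430.4 CPM with c-di-GMP. All treated libraries exceeded all 3 vehicle libraries. The log2 fold change was 0.19 ± 0.04 (SE, edgeR adjusted p = 0.000814), and 0.11 ± 0.03 with correction (edgeR adjusted p = 0.00913), where leaving out vehicle replicate 4 ended the call. LDHB, the subunit that favours lactate use, was far lower, at 7.10, 7.62 and 8.59 CPM with vehicle and 11.8, 10.1, 10.4 and 10.9 CPM with c-di-GMP. The groups did not overlap. LDHB rose by 0.47 ± 0.11 (edgeR adjusted p = 0.000927) and by 0.43 ± 0.10 with correction (edgeR adjusted p = 0.00304). Vehicle replicate 3 had 329.7 CPM, far outside both groups. LDHB is among the genes that share exonic bases with a neighbour, so that its level beside LDHA is uncertain. SLC16A3 (MCT4, the lactate exporter of glycolytic cells) had 816, 689.5 and 712 CPM with vehicle and 591, 552, 547 and 550.2 CPM with c-di-GMP, with c-di-GMP replicate 1 above the other 3. It fell by 0.40 ± 0.05 (edgeR adjusted p = 3.67e-07), and by 0.12 ± 0.03 with correction (edgeR adjusted p = 0.00611). SLC16A1 (MCT1) was close to the floor in all libraries, at 0.169 to 1.37 CPM outside vehicle replicate 3, and allows no statement.

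**Figure D3:**
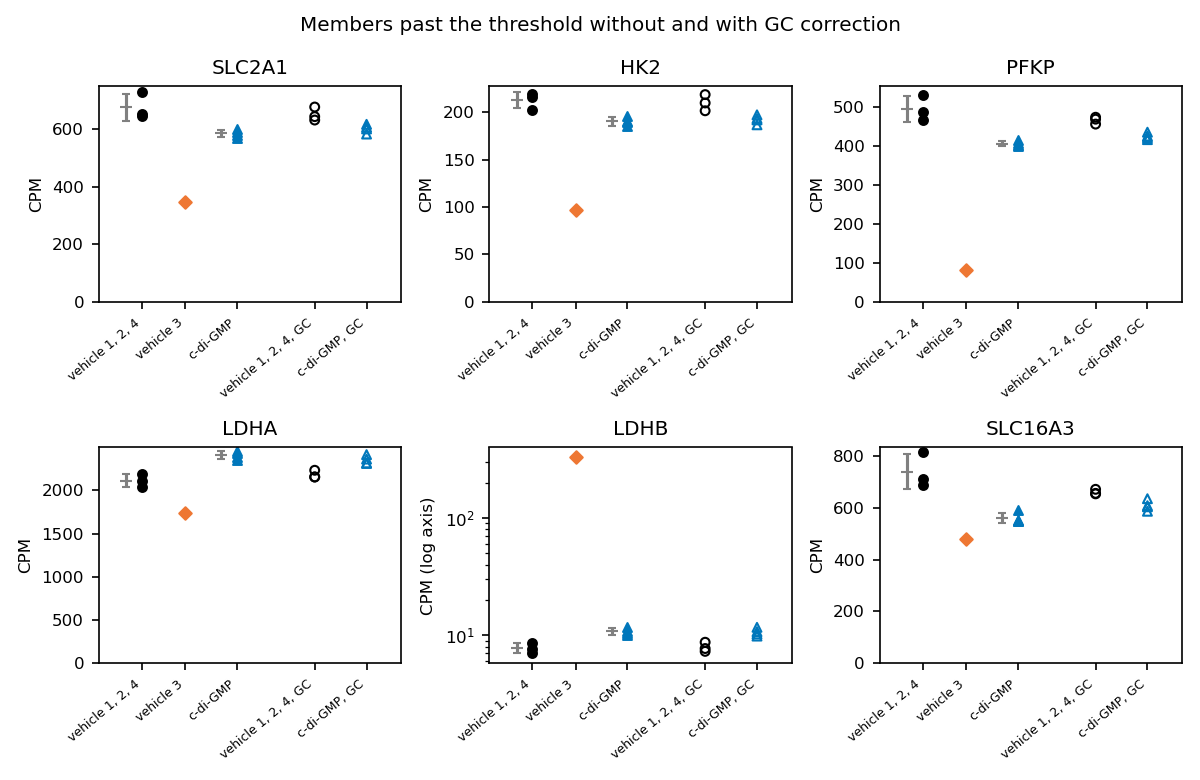
CPM of the 6 members that passed with and without GC correction, for each library; filled symbols are uncorrected (grey bars: mean and SD of vehicle replicates 1, 2 and 4 and of c-di-GMP 1 to 4), open symbols GC-corrected, diamonds vehicle replicate 3, and LDHB is on a log axis. The groups of 3 and 4 do not overlap in any panel, and vehicle replicate 3 lies below both groups in 5 panels and above them for LDHB, at 329.7 CPM.

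The 3 flux regulators passed without correction only. PFKFB3, which makes the activator of phosphofructokinase fructose 2,6-bisphosphate, had 140.5, 126 and 129 CPM in vehicle replicates 1, 2 and 4 and 110.1, 121, 116 and 114 CPM with c-di-GMP, with no overlap. It fell by 0.19 ± 0.05 (edgeR adjusted p = 0.00207), and its corrected log2 fold change was -0.08 ± 0.04 (edgeR adjusted p = 0.129). PFKFB4, of the same family, fell by 0.19 ± 0.06 (edgeR adjusted p = 0.0124) and stood at -0.05 ± 0.05 with correction (edgeR adjusted p = 0.559). PDK1, the kinase that shuts pyruvate dehydrogenase, rose by 0.16 ± 0.06 (edgeR adjusted p = 0.0380), and 11 of the 20 alternatives, GC correction and DESeq2 among them, ended that call.

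None of the 7 HIF subunits and regulators passed without correction. HIF1A had 330.3, 362 and 363 CPM in vehicle replicates 1, 2 and 4 and 387, 388, 358 and 378 CPM with c-di-GMP. c-di-GMP replicate 3 lay among the vehicle libraries. The log2 fold change was 0.10 ± 0.04 (edgeR adjusted p = 0.0710), and -0.03 ± 0.03 with correction (edgeR adjusted p = 0.537), so that the sign depended on the correction for this transcript of 36.4% GC, the lowest of the members. EPAS1 had 148, 131 and 141 CPM with vehicle and 142, 139, 134 and 138 CPM with c-di-GMP, and its 95% interval ran from -0.11 to 0.07 on the log2 scale. VHL had 74.3, 75.4 and 81.3 CPM with vehicle and 77.5, 78.5, 74.7 and 73.6 CPM with c-di-GMP, with an interval from -0.12 to 0.08. EGLN1, the main oxygen sensor of the pathway, was at -0.08 ± 0.04 without correction (edgeR adjusted p = 0.189) and fell by 0.16 ± 0.04 with it (edgeR adjusted p = 0.00175). ARNT2, EGLN2 and EGLN3 passed in neither fit.

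Set side by side in the 7 libraries, 3 of the 15 glycolytic enzymes and 0 of the 7 HIF regulators passed, all 3 falling, beside 16.4% of all genes that fell and 29.9% that passed, shares near that of the enzymes. The median log2 fold changes were -0.07 and -0.04, beside 0.00 over all genes. With GC correction 2 enzymes rose, 2 enzymes fell and 1 HIF regulator fell, beside 8.88% of all genes that rose and 6.92% that fell, and the medians were 0.00 and -0.04. With all 8 libraries none passed in either group, and the medians were 0.06 and 0.13. The enzymes together took 1.238% to 1.296% of the counts in vehicle replicates 1, 2 and 4 and 1.22% to 1.25% with c-di-GMP, ranges that overlapped. These groups were not tested against each other.

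Of the 11 HIF targets outside glycolysis, 1 rose and 0 fell without correction, beside 29.9% of all genes that passed, and 2 rose and 1 fell with it, beside 15.8%. P4HA1, a collagen prolyl hydroxylase subunit, had 111, 112 and 119.7 CPM in vehicle replicates 1, 2 and 4 and 125, 122, 131 and 126 CPM with c-di-GMP. It rose by 0.14 ± 0.05 (edgeR adjusted p = 0.0178), and its corrected value was 0.03 ± 0.04 (edgeR adjusted p = 0.684). Of the 20 alternatives 7 ended that call, among them leaving out vehicle replicate 2 or c-di-GMP replicate 1, 3 or 4. CA9, a carbonic anhydrase of the cell surface and a widely used hypoxia marker, was low, at 8.07 to 10.1 CPM with vehicle and 9.78 to 10.9 CPM with c-di-GMP. Without correction the change was 0.19 ± 0.10 (edgeR adjusted p = 0.163), and with correction it rose by 0.41 ± 0.10 (edgeR adjusted p = 0.00271). ADM, the vasodilator peptide adrenomedullin, rose by 0.21 ± 0.05 with correction only (edgeR adjusted p = 0.00328). BNIP3L, a mitophagy receptor like BNIP3, was at 0.00 ± 0.04 in the plain fit and fell by 0.12 ± 0.03 with correction (edgeR adjusted p = 0.00916). Its 3′ end shares exonic bases with the opposite strand. CA12, BNIP3, ANKRD37, P4HA2, KDM3A, ANGPTL4 and MXI1 passed in neither fit, and ANKRD37, at 3.59 to 5.79 CPM, had the adjusted p nearest the threshold (0.0502 with correction by edgeR).

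Vehicle replicate 3 differed from the other vehicle libraries by far more than c-di-GMP did, in both directions. This is 1 library, so that each value is a description with no replicate check. Brought to the scale of the other 7 libraries, it lay at least 2-fold above their mean for 9 members and at least 2-fold below for 10, and it was above all 3 other vehicle libraries for 17 members and below all 3 for 25. Over all genes it was above for 44.0% and below for 49.0%. LDHB stood 42.4-fold above the mean of vehicle replicates 1, 2 and 4, CA9 8.19-fold (74.0 CPM), TPI1 3.35-fold (1989 CPM) and EGLN3 2.73-fold (60.8 CPM). ALDOA stood 10.2-fold below (1.23 CPM), EGLN2 8.45-fold (1.14 CPM), PFKP 6.07-fold (81.4 CPM), CA12 5.80-fold (5.21 CPM), GAPDH 4.54-fold (418 CPM) and EPAS1 4.26-fold (32.9 CPM). HK2, with 97.0 CPM, HIF1A, with 170.1 CPM, and PFKFB3, with 62.2 CPM, were each more than 2-fold below. VHL had 48.4 CPM, LDHA 1741 CPM, PKM 2710 CPM, SLC16A3 479.9 CPM and P4HA1 281 CPM there.

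By role, vehicle replicate 3 was below all other vehicle libraries for 13 of the 15 glycolytic enzymes (all but TPI1 and PFKL) and for 5 of the 7 HIF regulators, and above them for 8 of the 11 HIF targets outside glycolysis. The median log2 ratio was -0.70 for the enzymes, -0.67 for the HIF regulators and 0.92 for the targets, beside -0.10 over all genes. The isoenzyme order changed within it: PFKL made up 58.7% of phosphofructokinase FPKM and PFKP 30.7%, LDHB 28.3% of the lactate dehydrogenases, EGLN3 32.9% of the prolyl hydroxylases and CA9 98.4% of the 2 carbonic anhydrases. Of the 9 members with a longest transcript of at most 2000 bases, 6 were higher in it than the mean of the other vehicle libraries (TPI1, LDHB, CA9, ADM, ANKRD37 and ANGPTL4), and of the 33 longer ones 11 were. Without TMM scaling every such log2 ratio is lower by 0.68, and those of SLC2A3, PFKL, PDK1, PFKFB4, EGLN1 and MXI1 then change direction. In the fit of all 8 libraries, 21 of the 42 members had the opposite sign to the fit of 7, among them HK2, PFKP, LDHB, PFKFB3 and P4HA1 of the 11 that passed. What made this library differ was not tested.

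**Figure D4:**
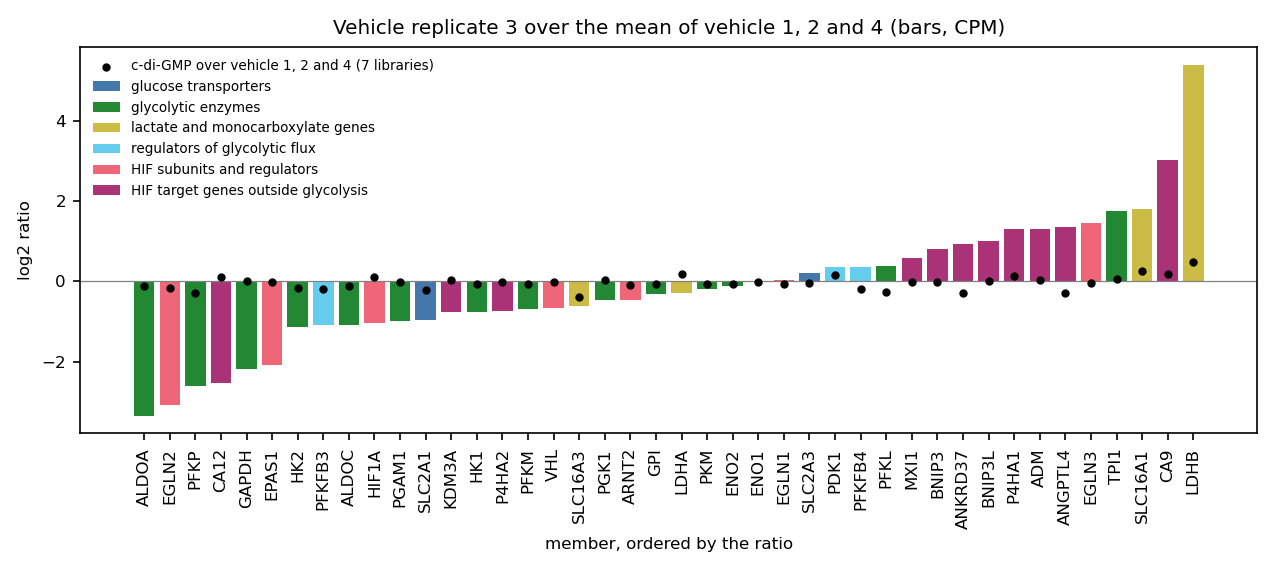
Log2 ratio of vehicle replicate 3 to the mean of vehicle replicates 1, 2 and 4 for each member (bars, coloured by role), with the log2 fold change for c-di-GMP in 7 libraries as black points. The bars run from -3.36 (ALDOA) to 5.41 (LDHB), and the points stay between -0.40 and 0.47.

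Further genes of the same routes, outside the 42, were read from the same fits. Their counts stand beside 13.6% of all genes that rose and 16.4% that fell without correction, and 8.88% and 6.92% with it. Of 12 other HIF regulators tested, 3 rose and 4 fell in the 7 libraries, and 1 rose and 3 fell with GC correction. CREBBP and EP300, the coactivators that HIF recruits, fell by 0.22 ± 0.05 (edgeR adjusted p = 0.00179) and 0.18 ± 0.05 (edgeR adjusted p = 0.00709), and RBX1, a subunit of the VHL ligase, rose by 0.23 ± 0.06 (edgeR adjusted p = 0.00247). With correction only EP300 of these 3 passed (edgeR adjusted p = 0.0358). Of 17 other hypoxia-induced genes, 2 rose and 5 fell, and with correction 0 rose and 6 fell. DDIT4 (REDD1), an inhibitor of mTORC1, fell by 0.53 ± 0.05 (edgeR adjusted p = 1.14e-09) and by 0.37 ± 0.04 with correction (edgeR adjusted p = 6.65e-10). The histone demethylase KDM4B fell by 0.45 ± 0.06 and by 0.21 ± 0.04 with correction.

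Of 15 other genes of glycolysis and glycogen, 2 rose and 5 fell, and 1 rose and 1 fell with correction: MPC2, a subunit of the mitochondrial pyruvate carrier, rose by 0.45 ± 0.07 (edgeR adjusted p = 2.30e-05) and by 0.35 ± 0.07 with correction, and the hexokinase relative HKDC1 fell by 0.34 ± 0.07 and 0.27 ± 0.07. The phosphatase PGP fell by 0.32 ± 0.07 without correction only. In the pentose phosphate pathway, 1 of 7 genes rose and 2 fell, and with correction 2 rose and none fell. PGD rose by 0.13 ± 0.04 and 0.19 ± 0.03 in the 2 fits, while TKT fell by 0.15 ± 0.04 without correction and passed no longer with it. Of 20 genes of pyruvate dehydrogenase and the citric acid cycle, 7 rose and 2 fell, beside 13.6% and 16.4% of all genes, and 5 rose and 1 fell with correction, beside 8.88% and 6.92%. DLAT, of the pyruvate dehydrogenase complex, rose by 0.19 ± 0.04, the fumarase FH by 0.20 ± 0.04 and the succinate dehydrogenase subunit SDHB by 0.22 ± 0.05, and with correction the values were 0.10, 0.11 and 0.20, which all passed. In the fit of all 8 libraries none of the genes of these 5 lists passed. Some of the named genes had the opposite sign there. These were MPC2 (-0.58 ± 0.58), RBX1 (-0.72 ± 0.55), FH (-0.12 ± 0.24), SDHB (-1.23 ± 0.74) and EP300 (0.21 ± 0.67). The other named genes of these lists kept their sign.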

How the data were processed

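Total RNA of 8 MDA-MB-231 libraries was sequenced. The deposited tables give counts per gene and, by the authors, FPKM per gene, each for 16383 genes, 14707 of them in both. Per the submitters' processing notes, the tools include HISAT2 2.0.5 and featureCounts 1.5.0-p3, with DESeq2 1.20.0, CASAVA 1.8 and fastp also named, and their settings are not given in the sources used here. The notes name a mouse build, but all gene identifiers and coordinates match human GENCODE release 29. No listed gene has under 55 counts in all.

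Counts were tested with edgeR 4.0.16 in R 4.3.3 (filterByExpr with minimum count 10 and minimum total 15, TMM, robust quasi-likelihood F test, treatment as the only term, Benjamini-Hochberg adjustment over all genes, threshold 0.05) in all 8 libraries and in the 7 without vehicle replicate 3. In the GC correction the deviation of each library from the mean of a gene was smoothed against GC of its longest transcript (lowess, span 0.3), and the trend entered as an offset. Standard errors are the absolute log2 fold change over the square root of F. CPM use the TMM factors of the 7 libraries, and vehicle replicate 3 was brought to their scale by the mean ratio of the factors of both fits (1.06). FPKM were used for levels between genes and for alternatives. The fits were tested on simulated data with the same low spread in every library and none that stood apart. That leaves the fit of all 8 libraries, with vehicle replicate 3, unchecked.

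Alternatives were DESeq2 1.42.0, limma 3.58.1 (voom on counts, and log2(FPKM + 1) or log2(FPKM + 0.1), also with a mean FPKM of at least 1), DESeq2 size factors, no TMM, no filter or at least 50 counts in 3 libraries, a replicate block, GC and length correction and each library left out. edgeR without its robust option was added after the data were seen. The members and lists, the fit without vehicle replicate 3 and the GC correction were chosen with earlier results of these data known. All members are named, with values of every library for those past the threshold in both fits of 7 libraries, for the smallest p of each role and for HIF1A, EPAS1, VHL, SLC2A1, HK2, GAPDH, PKM and LDHA. Of each further list up to 3 genes with the smallest p are named, and some of these are not reported here. All library pairs differed by more than counting noise (chi-square over its degrees of freedom was 1.76 for the closest pair). By this measure vehicle replicates 1 and 2 were farther apart (7.56) than vehicle replicate 2 was from any treated library (6.1 to 7.5). Vehicle replicate 4 was nearer to replicates 1 (4.67) and 2 (2.78) than to the treated libraries (9.46 to 11.07). For vehicle replicate 1 the distance to those was 19.66 to 22.58. Spread within the vehicle group was thus not always smaller than the difference between groups.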

Additional observations from a re-analysis of the deposited data

Results flagged for a closer look

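For each member, the 4 vehicle and the 4 c-di-GMP libraries were examined for a highest or lowest CPM whose gap to the nearest of the others was, as a share of the range of the group, above Dixon's critical value at the 95% level. This marked 26 of 84 groups, where chance marks about 1 in 20, and 22 of the 26 were vehicle replicate 3. It was the lowest library for 13 members. These were the enzymes HK1 (197 CPM), HK2 (97.0), PFKM (42.7), PFKP (81.4), ALDOA (1.23), GAPDH (418), PGK1 (755) and PGAM1 (299.7), the HIF genes HIF1A (170.1), EPAS1 (32.9) and EGLN2 (1.14), and CA12 (5.21) and KDM3A (54.1). It was the highest for 9, with 1989 CPM for TPI1, 329.7 for LDHB, 60.8 for EGLN3, 74.0 for CA9, 110.1 for ADM, 545 for BNIP3, 299 for BNIP3L, 281 for P4HA1 and 50.2 for MXI1.

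The other 4 were spread over 4 libraries. Vehicle replicate 1 was highest for ENO1, at 3558 CPM. Among the c-di-GMP libraries, replicate 1 was highest for SLC16A3 (591 CPM), replicate 3 was lowest for KDM3A (88.4 CPM) and replicate 2 was highest for MXI1 (37.4 CPM).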

How the results depend on the processing

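With all 8 libraries, 0 members passed under the 13 alternatives of tool, scaling, filter, unit, block and correction, and leaving out each library gave 0 to 11 members and 0 to 4685 genes, the upper values without vehicle replicate 3. DESeq2 called 122 genes there. Leaving out libraries moved the 8-library log2 fold change of HK2 between -0.16 and 0.15, of PFKP between -0.28 and 0.24, of LDHB between -3.41 and 0.47, of PFKFB3 between -0.19 and 0.13 and of P4HA1 between -0.43 and 0.14, each with the sign of the 7 libraries only without vehicle replicate 3. With 7 libraries, 9 to 11 members passed with each library left out and 10 to 15 under the other alternatives, and all genes called went from 4685 to 2472 with GC correction and to 2142 with GC and length correction. PFKL then changed from -0.27 to 0.052 and 0.093, and BNIP3L from 0.00 to -0.12 in both. With GC correction, leaving out libraries gave 10 to 15 members and 1592 to 2748 genes, the lowest without vehicle replicate 1 and 1642 without vehicle replicate 4. Same-numbered libraries deviated together at correlations of only -0.01 to 0.06 in the 7 libraries, so that they share a number and no known pairing, and not every library correlated best with its own number (vehicle replicate 2 did with c-di-GMP replicate 4, at 0.05). With the replicate block 10 members passed without GC correction (4165 genes, and 0 members with 8 libraries) and 7 with it, against 12, SLC2A1, HK2, LDHA, SLC16A3 and BNIP3L being lost. Across members and alternatives, 45 sign changes in the 7 libraries and 30 in the corrected fit were among values that passed on neither side. Depth limits SLC16A1, which lay near the floor of 3 counts. Causes of these differences were not tested.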
